A study of Saccharomyces cerevisiae with 17 samples.

Results

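The genes described here are 32 genes of sulfur assimilation and of methionine, cysteine and S-adenosylmethionine metabolism, with their regulators, among 5449 Saccharomyces cerevisiae genes read on Affymetrix yeast arrays. They were listed by name, with earlier results of these data already known. Each was read by 1 probe set that the array design does not mark as shared with similar sequences. The RNA came from CB11, a strain used to brew lager. Lager yeast is a hybrid of S. cerevisiae with a related species, and transcripts of both parents can reach the same probes. The yeast was sampled in a brewery at 2 stages. Propagation, in which yeast is grown with oxygen before use, ran in a 140 hL vessel with oxygen held at 7 to 8 mg/L and zinc added to 0.5 mg/L, with cells that had first been grown in air in a smaller vessel. Fermentation ran in a 3275 hL vessel on the same wort recipe, with oxygen at 25 mg/L when the wort went in, 0.2 mg/L of zinc, and yeast that had already served 4 fermentations. Propagation was sampled at 0 h, 8 h and 30 h with 3 arrays each, and fermentation at 8 h with 3 arrays, at 30 h with 2 and at 60 h with 3. The arrays of a time are samples A, B and C from a single vessel. In the reported fit each p-value rests on the spread between arrays of the same group, pooled over all groups of both stages. That spread can include differences in array and RNA quality, and it holds no spread between vessels of the same stage. Effects of stage, vessel, oxygen, zinc and the age of the yeast stock cannot be told apart. Levels are on the log2 scale, differences are taken between group means and carry their standard error (SE), and a gene was called higher or lower at a limma adjusted p under 0.05 over all 5449 genes.

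Yeast takes up sulfate, activates it with ATP and reduces it stepwise to sulfite and then to sulfide, which is joined to O-acetylhomoserine to give homocysteine. Homocysteine is methylated to methionine or passes through cystathionine to cysteine, and methionine is the source of S-adenosylmethionine, the methyl donor of the cell. The pathway is under the transcription activator Met4, which the ubiquitin ligase subunit Met30 holds in check when organic sulfur is plentiful. In brewing the pathway is known as the source of sulfite, a natural antioxidant of beer, and of hydrogen sulfide, an off-flavour.

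Propagation 8 h and 30 h, 6 arrays in all, stood apart from the remaining 11. Over all genes they correlated at 0.881 to 0.959 with each other and at 0.369 to 0.563 with the rest, which correlated at 0.730 to 0.998 among themselves. The mean of 9 hybridization controls, transcripts added to the sample before it meets the array, was 12.2 to 12.8 on these 6 arrays, 8.71 to 10.7 on 10 of the others and as low as 4.83 on array B of propagation 0 h. The median of 15 meiosis and sporulation genes, which mark a cell state other than vegetative growth, ran from 7.98 to 8.68 on the 6 arrays and 4.61 to 6.04 on the others. Not every marker followed this median, and IME2 had its highest group mean at propagation 0 h (7.17). The part of these array differences in the results was not tested. Replicate A of 3 groups had the largest loss of signal from the 3-prime to the 5-prime end of 7 control transcripts, at 4.31 for propagation 0 h, 3.74 for fermentation 60 h and 3.36 for fermentation 8 h, against 1.20 to 2.85 on the other 14. The first of these also differed from its companions B and C, where the difference over all genes had a standard deviation of 1.17 and 1.08, against 0.37 between B and C. For fermentation 8 h B and C, which were nearly identical, it was only 0.123, less than the 0.332 to 0.669 between other pairs of fermentation arrays of a group. Samples of fermentation 8 h and 30 h carry in their titles a mark that the labels do not explain, and whatever it stands for cannot be told apart from differences between those groups and the rest.

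**Figure D1:**
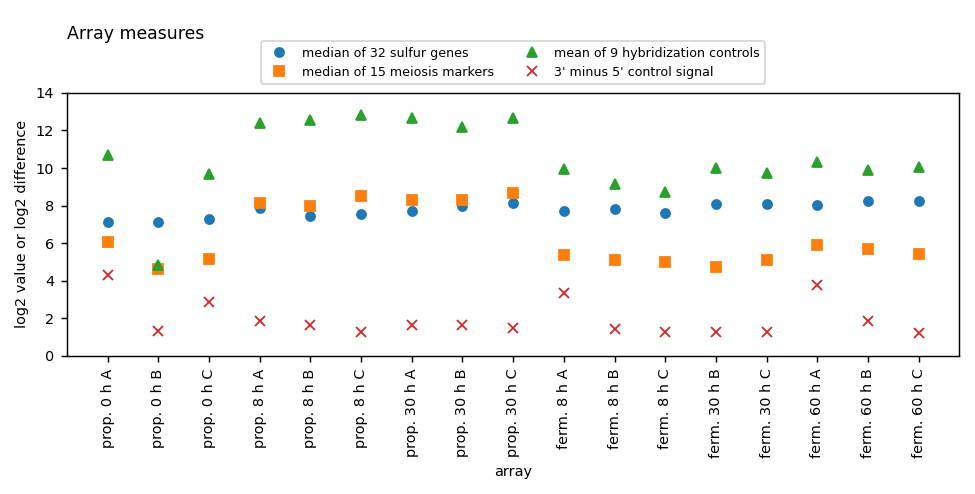
Median log2 value of the 32 sulfur genes, median of 15 meiosis markers, mean of 9 hybridization controls and the 3-prime minus 5-prime difference of control transcripts (y axis, log2) for each of the 17 arrays (x axis). The meiosis markers and hybridization controls are highest on the 6 arrays of propagation 8 h and 30 h, and the 3-prime minus 5-prime difference is highest on replicate A of propagation 0 h, fermentation 8 h and fermentation 60 h.

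The 1746 probe sets made for another species gave a measure of background, and 25 of the 32 genes were above the 95th percentile of these probe sets on all 17 arrays. MET16, which encodes the reductase that turns activated sulfate into sulfite, was above it on none, at 2.57 to 3.23, and gives only a bound. The other 6 were above it on 11 to 16 arrays. SAM3, which takes up S-adenosylmethionine, was measured at 7.87 to 10.22 and was also called in none of the 9 comparisons between groups. MET3 was called in 7 of the 9. SUL1, MET5, MET10, STR2, STR3, CYS3, MMP1, MUP3 and MET30 were called in 5 each.

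**Figure D2:**
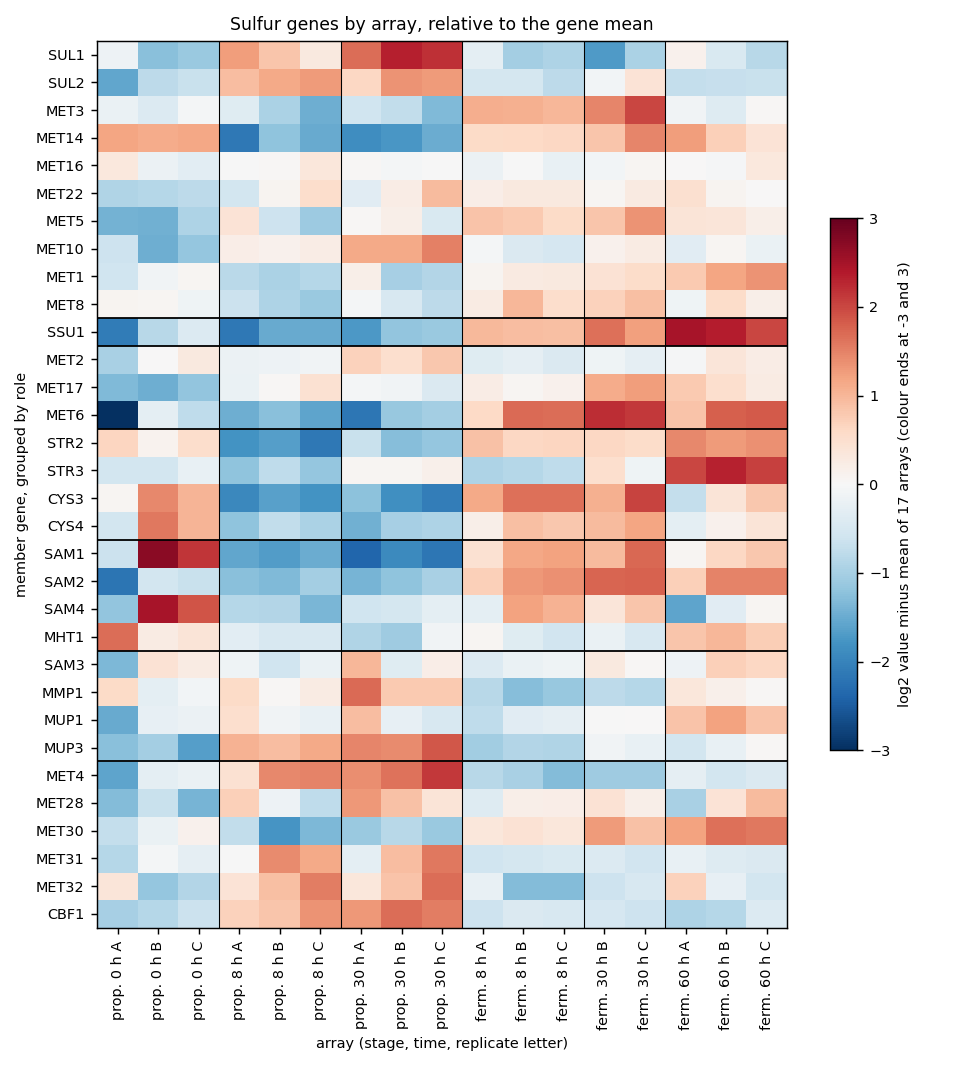
Heat map of the 32 sulfur genes (rows, grouped by role) on 17 arrays (columns), as the log2 value minus the gene's mean over the 17 arrays, with colours ending at -3 and 3. Columns of propagation 8 h and 30 h differ from the rest, with sulfate transporters and most regulators high and MET14, STR2, CYS3 and SAM1 low, and STR3 and SSU1 are highest at fermentation 60 h.

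The earliest fermentation samples, at 8 h, were compared with propagation 0 h, a pair of groups that does not involve the 6 arrays standing apart. The time in the vessel differs in this pair along with the stage, and their effects cannot be told apart. At fermentation 8 h, transcripts of both sulfite reductase subunits (MET5 and MET10), the sulfite pump (SSU1), homocysteine synthase (MET17), methionine synthase (MET6) and one S-adenosylmethionine synthetase (SAM2) were higher than at propagation 0 h. MET2, at -0.13 (adjusted p = 0.764), and SAM1, at -0.45 (0.614), did not pass. Of the 10 genes of sulfate uptake and reduction 6 were not called, nor were the 4 of cysteine and cystathionine or the 6 regulators. Of the 32 genes, 8 were higher, where 16.5% of all genes were, and 2 were lower, where 11.5% of all genes were. The 8 were MET3, MET22, MET5, MET10, SSU1, MET17, MET6 and SAM2, at differences of 0.75 to 2.73, and the 2 lower were MHT1 and MMP1, genes that lie side by side, at -1.07 and -1.14. These are 25.0% and 6.25% of the 32 genes, whose median difference was 0.31, against 0.10 over all genes. Of the 10 calls, 7 held in every setting run. MET10 was not called without any one of propagation 0 h B, propagation 0 h C, fermentation 8 h A or fermentation 8 h B (adjusted p from 0.0534 to 0.117). MHT1 was not called without propagation 0 h A (-0.61), fermentation 8 h B (-1.03) or fermentation 8 h C (-0.93), and MET6 was not called when the 2 groups were fitted alone (adjusted p = 0.0541). Without propagation 0 h A, 3 further genes were lower, SAM1 at -1.48, SAM4 at -1.52 and MET4 at -0.79, and without propagation 0 h C or without fermentation 60 h A or C a further gene was higher, MET30 (0.83) or MET28 (1.12).

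Within fermentation, the change with time was asked at 30 h and 60 h. Between 8 h and 30 h limma called none of the 32 genes higher, as for all genes (0%), and none lower, again as for all genes (0%). At an unadjusted p under 0.05 it counted 189 of the 5449 genes and 6 of the 32, namely SUL2, MET3, MET17, STR3, MUP3 and MET30, all higher at 30 h, and with array weights it called 7, these 6 and MET10. Between 8 h and 60 h, 8 genes rose, where 9.21% of all genes did, and 2 fell, where 6.64% of all genes did. Those that rose were STR3, the most at 2.96 (SE 0.22, adjusted p = 8.27e-07), a 7.77-fold change, and MUP1, SSU1, MMP1, MHT1, MET30, MET1 and MUP3, at 0.70 to 1.44. Those that fell were CYS3 and MET3. The shares of the 32 genes were 25.0% and 6.25%, and the median was 0.22 over the 32 and 0.08 over all genes. Between 30 h and 60 h, STR3 rose by 1.93, where 2.84% of all genes rose, and MET3 fell by 1.90, where 1.47% of all genes fell, with medians of -0.03 over the 32 genes and 0.14 over all genes.

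The calls on MET3, STR3 and MMP1 between 8 h and 60 h held in every setting run. The other 7 were lost in some, and without fermentation 60 h B alone only 3 of the 10 remained called. MET30 was lost without that array (adjusted p = 0.0536), and MUP1 without it or without fermentation 8 h A (0.0683 and 0.0570). SSU1 was lost without any one of fermentation 8 h B or C or fermentation 60 h A or B (0.0504 to 0.0536). CYS3 was lost without the same 4 arrays and stood at -0.88 without fermentation 60 h A (adjusted p = 0.168). MHT1 was lost without any one of fermentation 8 h B or C or the 3 arrays of fermentation 60 h (0.0527 to 0.119). MET1 and MUP3, whose adjusted p was 0.0430 and 0.0447, were lost without any one of fermentation 8 h A, B or C, fermentation 30 h B or C, or fermentation 60 h B or C (up to 0.139 and 0.170), MET1 also without any array of propagation 8 h and MUP3 without propagation 8 h B or propagation 30 h B. With the near-identical fermentation 8 h B and C counted as 1 array, 5 genes were called, and MET1, SSU1, CYS3, MHT1 and MUP3 were not. With recentred arrays 7 genes were called, as under quantile normalization, and MET1, MHT1 and MUP3 were lost in both settings. A fit without the 6 arrays that stand apart lost CYS3, MHT1 and MUP3 and called STR2. Both calls between 30 h and 60 h were lost without fermentation 30 h C, at -1.62 for MET3 (adjusted p = 0.176) and 1.61 for STR3 (0.0605).

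**Figure D3:**
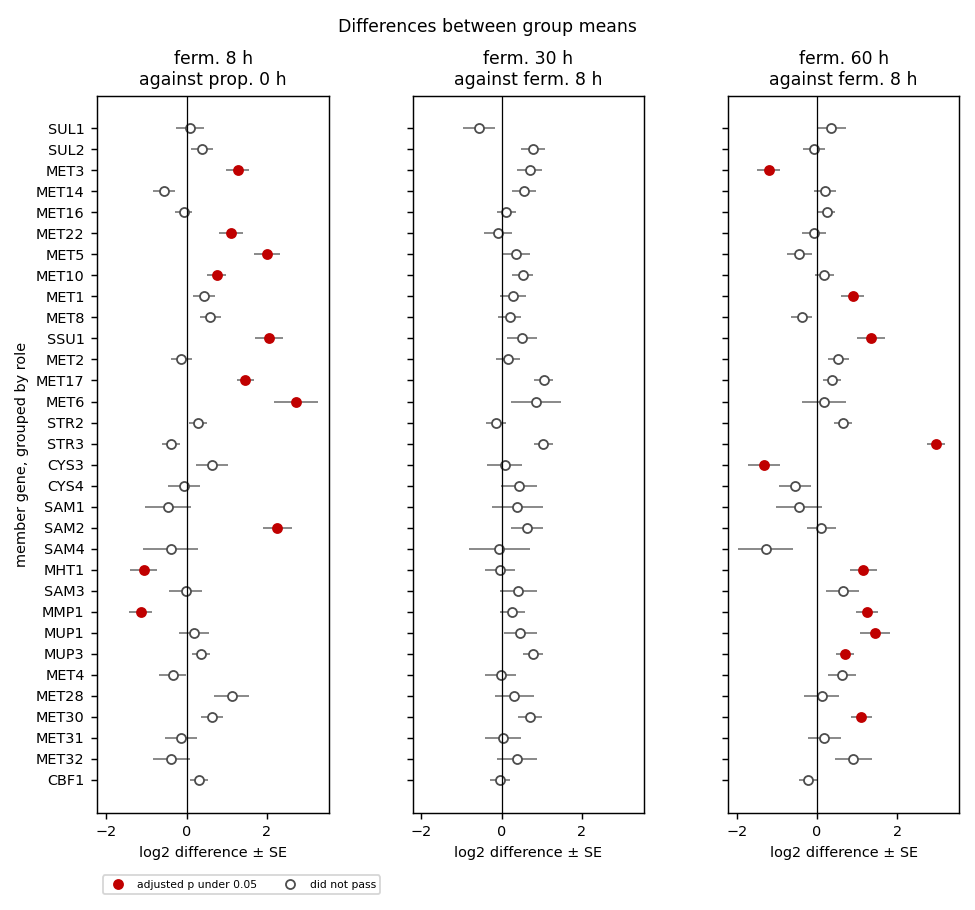
Log2 differences between group means with their SE (x axis) for the 32 sulfur genes (y axis, grouped by role) in fermentation 8 h against propagation 0 h, fermentation 30 h against 8 h and fermentation 60 h against 8 h. Filled points passed an adjusted p under 0.05: 10 in the first panel, 0 in the second and 10 in the third, where STR3 lies farthest from 0 at 2.96.

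Propagation 8 h and 30 h were compared with 0 h and with fermentation of the same age, and every one of these comparisons sets the 6 arrays that stand apart against others. At propagation 8 h, 12 of the 32 genes were higher than at 0 h, where 24.3% of all genes were, and 12 were lower, where 43.1% of all genes were. The sulfate transporters, the amino acid transporter MUP3 and 5 of 6 regulators were among the higher genes. All 4 genes of cysteine and cystathionine and 3 of 4 of S-adenosylmethionine were among the lower. The median of all genes was itself shifted by -0.44, and with the arrays recentred 13 of the 32 were higher and 8 lower. At propagation 30 h, 15 were higher than at 0 h, where 28.6% of all genes were, and 8 were lower, where 38.7% of all genes were, at a median of 0.52 over the 32 and -0.25 over all. In both comparisons the same 3 arrays of propagation 0 h were the reference. Of the 24 calls at 8 h 15 held in every setting run, and of the 23 at 30 h 18 did. Fitted without the other groups, 17 and 18 genes were called. Of the 15 meiosis markers, 12 were higher at 8 h and 14 at 30 h than at 0 h, and their part was not tested.

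From 8 h to 30 h of propagation, both groups among the arrays that stand apart, 4 genes rose (SUL1, MET10, STR2 and STR3, by 0.84 to 1.29), where 3.08% of all genes did, and 0 fell, where 1.93% of all genes did. At an unadjusted p under 0.05 limma counted 1055 of the 5449 genes and 8 of the 32. STR2 was not above the other-species percentile on any array of propagation 8 h, so its difference from that group is only a bound. The rise of STR3 held in every setting run. MET10 was not called without propagation 30 h C (adjusted p = 0.0691). SUL1, whose adjusted p was 0.0467, and STR2, at 0.0402, each lost the call without any single array of propagation 30 h, without propagation 8 h B or C and without any one of fermentation 8 h B or C, fermentation 30 h B or C or fermentation 60 h B or C (up to 0.178 and 0.143). SUL1 lost it also without propagation 0 h C, and STR2 without propagation 8 h A or fermentation 8 h A. Neither gene passed with recentred arrays or with fermentation 8 h B and C averaged. STR2 also did not pass under quantile normalization, with only the groups compared or with array weights.

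At 8 h, fermentation was higher than propagation in 14 of the 32 genes, where 44.7% of all genes were higher, and lower in 8, where 24.4% of all genes were lower. The median of all genes was shifted by 0.49, and with the arrays recentred 13 were higher and 12 lower. At 30 h, 14 were higher, where 37.5% of all genes were, and 10 were lower, where 27.9% of all genes were. The shares of the 32 genes, 43.8% and 25.0% at 8 h and 43.8% and 31.2% at 30 h, were close to those of all genes at 8 h. Of the 15 meiosis markers, 13 were lower in fermentation at either time. Whether the change from 8 h to 30 h differed between the stages was tested as an interaction. None of the 32 genes had a more positive change in fermentation, where 0.128% of all genes did, and none a more negative one, where 0.147% of all genes did. At an unadjusted p under 0.05 limma counted 598 of the 5449 genes and 3 of the 32, SUL1 (-1.85), MET17 (1.33) and STR2 (-0.98). The value of STR2 rests on propagation 8 h, where it was not above background. That of SUL1 rests in part on fermentation 30 h B, where SUL1 was not above background.

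SUL1 and SUL2 encode the high-affinity sulfate transporters of the plasma membrane. SUL1 read 6.11, 5.01 and 5.15 on the A, B and C arrays of propagation 0 h, 7.51, 7.08 and 6.54 at 8 h and 7.94, 8.59 and 8.46 at 30 h. In fermentation SUL1 read 5.96, 5.24 and 5.32 at 8 h, 4.57 and 5.32 on B and C at 30 h and 6.38, 5.80 and 5.42 at 60 h. On fermentation 30 h B it was not above the other-species percentile. The 6 arrays of propagation 8 h and 30 h were above all others. SUL1 was higher than at propagation 0 h by 1.62 (SE 0.36, adjusted p = 0.000727) at 8 h and by 2.91 (SE 0.36, adjusted p = 1.92e-06) at 30 h, or by 2.06 and 3.16 above the median of all genes. Its levels at fermentation 8 h and propagation 0 h overlapped. SUL2 ranged from 5.66 to 8.55 and was higher at propagation 8 h and 30 h than at 0 h by 2.11 and 2.08. At fermentation 30 h it was lower than at propagation 30 h, at -0.91 (SE 0.29, adjusted p = 0.0121), a call lost without fermentation 30 h B.

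MET3 encodes ATP sulfurylase, the first enzyme of sulfate activation. It read 5.69, 5.47 and 5.83 at propagation 0 h, 5.54, 4.95 and 4.42 at 8 h and 5.28, 5.15 and 4.56 at 30 h. In fermentation MET3 read 6.97, 6.96 and 6.88 at 8 h, 7.35 and 7.91 at 30 h and 5.78, 5.50 and 5.92 at 60 h. All 5 arrays of fermentation 8 h and 30 h were above the other 12, and the arrays of fermentation 60 h overlapped those of propagation 0 h. The difference between fermentation 8 h and propagation 0 h was 1.27 (SE 0.28, adjusted p = 0.00268). From fermentation 8 h to 60 h it was -1.20 (SE 0.28, adjusted p = 0.00737), or -1.29 against the median of all genes. MET3 was also lower at propagation 8 h and 30 h than at 0 h, at -0.69 (adjusted p = 0.0362) and -0.66 (0.0444). With recentred arrays neither passed (-0.35, adjusted p = 0.281, and -0.48, 0.142), nor with only the groups compared or without the 3 arrays of low 5-prime signal. The first of these calls was lost also without propagation 0 h C, propagation 8 h B or propagation 8 h C, and the second with fermentation 8 h B and C averaged and without any one of propagation 0 h A or C, propagation 8 h B, propagation 30 h B or C or the arrays of fermentation 8 h and 60 h. MET3 did not exceed the other-species percentile on propagation 8 h B and C and propagation 30 h C.

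MET14 encodes the kinase that acts after ATP sulfurylase. Its values were 8.92 to 8.99 at propagation 0 h, 5.64 to 6.59 at 8 h and 30 h, and 8.22 to 9.26 in fermentation. It was lower than at propagation 0 h, at -2.78 (SE 0.27, adjusted p = 1.5e-07) for 8 h and -2.85 (SE 0.27, adjusted p = 9.22e-08) for 30 h, or -2.35 and -2.60 against the median of all genes. At fermentation 8 h against propagation 0 h it did not pass (-0.56, adjusted p = 0.136). MET22, a phosphatase that removes the by-product of sulfate reduction, ranged from 7.81 to 9.67 and was higher than at propagation 0 h by 1.11 at fermentation 8 h, 0.86 at propagation 8 h and 1.13 at propagation 30 h. The second of these calls was lost with only the groups compared and without propagation 8 h C.

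MET5 and MET10 encode the 2 subunits of sulfite reductase, which makes sulfide. MET5 read 6.13, 6.10 and 6.62 at propagation 0 h, 7.96, 6.91 and 6.44 at 8 h and 7.57, 7.72 and 7.09 at 30 h. In fermentation MET5 read 8.40, 8.32 and 8.13 at 8 h, 8.38 and 8.89 at 30 h and 7.92, 7.90 and 7.72 at 60 h. Every fermentation array was above every array of propagation 0 h, and the difference at fermentation 8 h was 2.00 (SE 0.32, adjusted p = 0.000193), a 4.00-fold change. In propagation MET5 was higher at 30 h than at 0 h by 1.18 (SE 0.32, adjusted p = 0.00344), while its groups overlapped at 8 h (0.82, a call lost without propagation 0 h A, propagation 0 h B or propagation 8 h A). MET10 read 7.49, 6.65 and 6.96 at propagation 0 h, 8.33, 8.25 and 8.34 at 8 h and 9.25, 9.27 and 9.62 at 30 h. In fermentation MET10 read 8.07, 7.67 and 7.61 at 8 h, 8.24 and 8.36 at 30 h and 7.78, 8.18 and 7.92 at 60 h. The group of highest mean was propagation 30 h for MET10 and fermentation 30 h for MET5. MET10 at propagation 30 h was 2.34 above 0 h and 1.07 (SE 0.23, adjusted p = 0.014) above 8 h. Between the stages at 30 h, MET10 was lower in fermentation, at -1.08 (SE 0.26, adjusted p = 0.00166), and MET5 was higher, at 1.18 (SE 0.35, adjusted p = 0.00762), a call lost without fermentation 30 h C. MET1 and MET8 make siroheme, the cofactor of this enzyme. MET1 ranged from 6.28 to 8.61, with its 3 highest values at fermentation 60 h, 0.89 above 8 h. At propagation 8 h it was lower than at 0 h, at -0.66 (SE 0.28, adjusted p = 0.0487), a call lost with recentred arrays (-0.31, adjusted p = 0.350), under quantile normalization, with only the groups compared, with fermentation 8 h B and C averaged, and without propagation 0 h B or C or without any one array of propagation 8 h, fermentation 8 h or fermentation 30 h, or fermentation 60 h B or C. Between the stages at 30 h MET1 was higher in fermentation, at 1.07, a call lost without fermentation 30 h C. MET8 ranged from 4.10 to 6.20 and exceeded the other-species percentile on 11 arrays, but on none of the 6 arrays of propagation 8 h and 30 h. It was lower at propagation 8 h than at 0 h, at -0.90 (SE 0.26, adjusted p = 0.00527), a difference that is therefore only a bound and a call lost with recentred arrays (adjusted p = 0.0869).

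SSU1 encodes the plasma membrane pump that exports sulfite. It read 5.63, 6.90 and 7.31 at propagation 0 h, 5.59, 6.22 and 6.21 at 8 h and 6.01, 6.55 and 6.61 at 30 h. In fermentation SSU1 read 8.71, 8.66 and 8.64 at 8 h, 9.38 and 8.97 at 30 h and 10.20, 10.09 and 9.74 at 60 h. The 8 fermentation arrays were above all 9 propagation arrays, and the 3 fermentation times did not overlap. The difference at fermentation 8 h against propagation 0 h was 2.06 (SE 0.34, adjusted p = 0.00029), a 4.17-fold change, and it was 1.57 without propagation 0 h A. Against propagation of the same age SSU1 was higher by 2.66 at 8 h and 2.78 at 30 h. Within propagation it did not pass, and without propagation 0 h A, the lowest array of its group, it fell by 1.10 at 8 h and by 0.71 at 30 h.

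**Figure D4:**
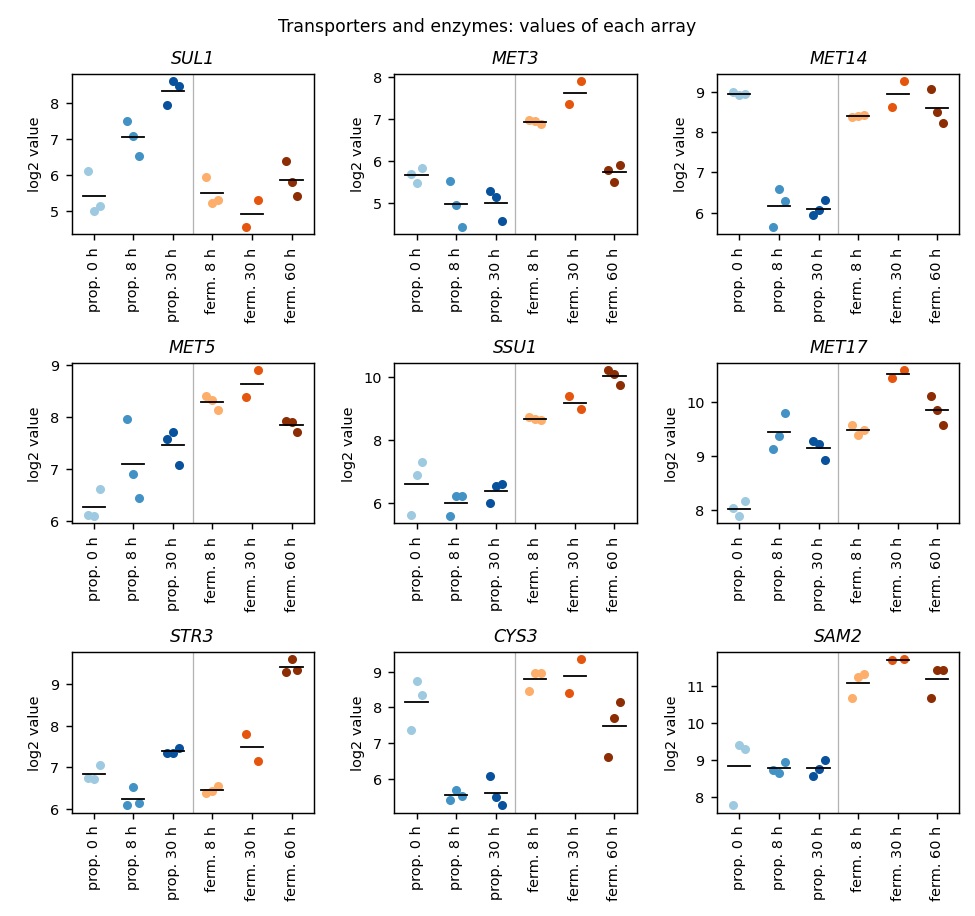
Log2 values of each array (points) and group means (bars) for 9 transporters and enzymes in the 6 groups of stage and time (x axis), with propagation left and fermentation right of the grey line. SSU1 lies higher on all 8 fermentation arrays than on all 9 propagation arrays, MET3 is highest at fermentation 8 h and 30 h, and STR3 is highest at fermentation 60 h.

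MET17 joins sulfide to O-acetylhomoserine to give homocysteine, MET2 makes that O-acetylhomoserine, and MET6 methylates homocysteine to methionine. MET17 ranged from 7.88 to 8.15 at propagation 0 h and from 8.92 to 10.60 on the other 14 arrays. It was higher than at propagation 0 h by 1.42 (SE 0.22, adjusted p = 2.62e-05) at propagation 8 h, by 1.13 at propagation 30 h and by 1.47 (SE 0.22, adjusted p = 0.00013) at fermentation 8 h. Between the stages at 8 h it did not pass (0.04), and under quantile normalization it was lower in fermentation. Its 2 highest arrays were those of fermentation 30 h, 10.45 and 10.60. MET6 read 6.36, 9.22 and 8.74 at propagation 0 h and 7.35 to 8.50 at propagation 8 h and 30 h. In fermentation MET6 read 10.11, 11.21 and 11.19 at 8 h, 11.72 and 11.64 at 30 h and 10.38, 11.30 and 11.36 at 60 h. Propagation 0 h A was the lowest of all 17 arrays. The difference at fermentation 8 h against propagation 0 h was 2.73 (SE 0.55, adjusted p = 0.00157), and it was 1.85 without that array, when MET6 was also lower at propagation 8 h (-0.90) and 30 h (-0.91) than at 0 h. MET2 ranged from 7.10 to 8.86 and was called higher at propagation 30 h than at 0 h (0.88 (SE 0.26, adjusted p = 0.00671)) and lower at fermentation 30 h than at propagation 30 h (-0.86 (SE 0.29, adjusted p = 0.0167)). The first of these calls was lost when the 2 groups were fitted alone, and the second without either array of fermentation 30 h.

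STR2 and CYS4 make cystathionine from cysteine and from homocysteine, and STR3 and CYS3 break it down to homocysteine and to cysteine. STR3, the lyase on the way to methionine, read 6.73, 6.73 and 7.06 at propagation 0 h, 6.08, 6.52 and 6.13 at 8 h and 7.33, 7.35 and 7.45 at 30 h. In fermentation STR3 read 6.37, 6.43 and 6.54 at 8 h, 7.80 and 7.16 at 30 h and 9.29, 9.59 and 9.34 at 60 h. The 3 arrays of fermentation 60 h were above the other 14, and the 3 fermentation times did not overlap. In propagation STR3 rose from 8 h to 30 h by 1.14 (SE 0.22, adjusted p = 0.00521). Against 0 h it was -0.60 at 8 h (adjusted p = 0.0224) and 0.54 at 30 h (0.0360). With recentred arrays the first of these calls was lost (-0.25, adjusted p = 0.310), as it was under quantile normalization, and both were lost with only the groups compared. The call at 8 h was lost also without propagation 0 h C, propagation 8 h A or propagation 8 h C, and that at 30 h with array weights, when the 3 low 5-prime arrays were left out, and without propagation 0 h A or B or any array of propagation 30 h. CYS3, the lyase on the way to cysteine, read 7.38, 8.75 and 8.34 at propagation 0 h, 5.40, 5.69 and 5.52 at 8 h and 6.08, 5.49 and 5.26 at 30 h. In fermentation CYS3 read 8.46, 8.97 and 8.96 at 8 h, 8.39 and 9.35 at 30 h and 6.61, 7.70 and 8.14 at 60 h. Its lowest fermentation array was 60 h A, one of the 3 arrays of low 5-prime signal. CYS3 fell from fermentation 8 h to 60 h by 1.31 (adjusted p = 0.0336) and was -2.62 and -2.54 at propagation 8 h and 30 h against 0 h, or -2.18 and -2.29 against the median of all genes. On propagation 8 h A and C it was not above the other-species percentile.

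STR2 read 6.98, 6.45 and 6.87 at propagation 0 h, 4.54, 4.67 and 4.18 at 8 h and 5.68, 5.07 and 5.17 at 30 h. In fermentation STR2 read 7.23, 6.97 and 6.97 at 8 h, 6.95 and 6.88 at 30 h and 7.79, 7.63 and 7.70 at 60 h. The 6 arrays of propagation 8 h and 30 h were below all others, at -2.30 (SE 0.22, adjusted p = 1.68e-07) and -1.46 (SE 0.22, adjusted p = 2.19e-05) against 0 h. At propagation 8 h none of the 3 arrays was above the other-species percentile, and the first of these differences is only a bound. From fermentation 8 h to 60 h STR2 did not pass (0.65, adjusted p = 0.0605), although the arrays of 60 h lay above the other fermentation arrays. CYS4 ranged from 8.62 to 11.64 and was lower at propagation 8 h and 30 h than at 0 h, at -1.65 and -1.81, or -2.27 and -2.43 without propagation 0 h A. CYS4 did not pass between fermentation 8 h and propagation 0 h (-0.06).

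SAM1 and SAM2 encode the 2 S-adenosylmethionine synthetases. SAM1 read 7.84, 11.19 and 10.63 at propagation 0 h, 6.12 to 7.00 at propagation 8 h and 30 h and 8.54 to 10.21 in fermentation. SAM2 read 7.77, 9.41 and 9.29 at propagation 0 h, 8.56 to 8.99 at propagation 8 h and 30 h and 10.68 to 11.73 in fermentation. Replicate A of propagation 0 h was the lowest array of its group for both. At fermentation 8 h against propagation 0 h, SAM2 was higher by 2.26 (SE 0.36, adjusted p = 0.000191), a 4.79-fold change, and SAM1 did not pass at -0.45 (SE 0.57, adjusted p = 0.614). Without propagation 0 h A the 2 genes were both called in opposite directions, SAM2 at 1.73 and SAM1 at -1.48. SAM1 was lower at propagation 8 h and 30 h than at 0 h, at -2.97 (SE 0.57, adjusted p = 0.00022) and -3.55 (SE 0.57, adjusted p = 3.63e-05). Without propagation 0 h A these were -3.99 and -4.57, and without propagation 0 h B they were -2.32 and -2.90. SAM2 did not pass there (-0.06 and -0.05). SAM4 and MHT1 use S-adenosylmethionine and S-methylmethionine to turn homocysteine into methionine. SAM4 ranged from 6.77 to 10.84 and had a SE of 0.68 in the comparisons with propagation 0 h, the largest of the 32 genes. It was called lower at propagation 8 h than at 0 h (-2.08 (SE 0.68, adjusted p = 0.0125)), a call lost with only the groups compared and without propagation 0 h B (-1.37) or C, and larger without propagation 0 h A (-3.21), and higher at fermentation 8 h than at propagation 8 h (1.69 (SE 0.68, adjusted p = 0.0364)), a call lost with recentred arrays (adjusted p = 0.0940), under quantile normalization, with fermentation 8 h B and C averaged, and without fermentation 8 h B or C or any array of propagation 8 h. At propagation 30 h against 0 h it did not pass (-1.53, adjusted p = 0.0566), and it was lower there without propagation 0 h A (-2.65).

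MHT1 lies next to MMP1, which encodes the S-methylmethionine permease, and SAM4 lies next to SAM3. MMP1 read 7.95, 7.10 and 7.30 at propagation 0 h, 7.96, 7.43 and 7.62 at 8 h and 9.09, 8.17 and 8.16 at 30 h. In fermentation MMP1 read 6.56, 6.12 and 6.25 at 8 h, 6.61 and 6.54 at 30 h and 7.71, 7.55 and 7.42 at 60 h. It was lower at fermentation 8 h than at propagation 0 h, at -1.14 (SE 0.28, adjusted p = 0.00605), and rose by 1.25 (SE 0.28, adjusted p = 0.00615) from fermentation 8 h to 60 h. The neighbour MHT1 had values of 7.34 to 7.61 at fermentation 60 h against 6.04 to 6.67 at 8 h and 30 h, 1.15 from 8 h to 60 h. At propagation 30 h against 0 h the pair went opposite ways, MMP1 at 1.02 (SE 0.28, adjusted p = 0.00398) and MHT1 at -1.47 (SE 0.33, adjusted p = 0.000945).

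MUP1 and MUP3 encode methionine permeases of high and low affinity. MUP1 ranged from 6.74 to 9.46 and was called in 1 comparison, higher at fermentation 60 h (9.10 to 9.46) than at 8 h (7.48 to 7.97), by 1.44 (SE 0.37, adjusted p = 0.0153). MUP3 read 7.46, 7.69 and 7.06 at propagation 0 h, 9.75, 9.63 and 9.84 at 8 h and 10.18, 10.14 and 10.57 at 30 h. In fermentation MUP3 read 7.67, 7.84 and 7.80 at 8 h, 8.60 and 8.48 at 30 h and 8.15, 8.48 and 8.76 at 60 h. The 6 arrays of propagation 8 h and 30 h were above all others. MUP3 was higher than at propagation 0 h by 2.34 (SE 0.22, adjusted p = 1.41e-07) at 8 h and by 2.89 (SE 0.22, adjusted p = 1.08e-08) at 30 h, or 2.78 and 3.14 above the median of all genes.

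Of the regulators, MET4 encodes the activator, and CBF1, MET28, MET31 and MET32 encode cofactors through which it reaches DNA. MET4 read 7.22, 8.50 and 8.61 at propagation 0 h, 9.26, 10.25 and 10.30 at 8 h and 10.19, 10.43 and 10.91 at 30 h. In fermentation MET4 read 7.96, 7.82 and 7.49 at 8 h, 7.72 and 7.74 at 30 h and 8.54, 8.25 and 8.37 at 60 h. All 6 arrays of propagation 8 h and 30 h were above the other 11, at 1.83 (SE 0.35, adjusted p = 0.000193) and 2.40 (SE 0.35, adjusted p = 1.12e-05) against 0 h. At fermentation 8 h against propagation 0 h MET4 did not pass (-0.35). CBF1 read 6.17, 6.31 and 6.52 at propagation 0 h, 7.85, 8.00 and 8.52 at 8 h and 8.48, 8.84 and 8.70 at 30 h. In fermentation CBF1 read 6.55, 6.74 and 6.68 at 8 h, 6.67 and 6.55 at 30 h and 6.25, 6.31 and 6.76 at 60 h. Outside propagation 8 h and 30 h, its values covered a range of only 0.59. CBF1 was higher than at propagation 0 h by 1.79 (SE 0.23, adjusted p = 2.81e-06) at 8 h and by 2.34 (SE 0.23, adjusted p = 1.17e-07) at 30 h, or 2.23 and 2.59 above the median of all genes.

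MET31 and MET32 encode related zinc-finger proteins. MET31 read 6.20, 7.00 and 6.78 at propagation 0 h, 7.03, 8.46 and 8.19 at 8 h and 6.76, 7.98 and 8.62 at 30 h. In fermentation MET31 read 6.44, 6.52 and 6.59 at 8 h, 6.64 and 6.47 at 30 h and 6.83, 6.67 and 6.61 at 60 h. It was higher at propagation 8 h than at 0 h by 1.24, a call lost without propagation 8 h B, and at 30 h by 1.13, a call lost without propagation 0 h A or propagation 30 h B or C. MET32 read 7.85, 6.33 and 6.60 at propagation 0 h, 7.89, 8.38 and 9.03 at 8 h and 7.83, 8.34 and 9.16 at 30 h. In fermentation MET32 read 7.26, 6.19 and 6.20 at 8 h, 6.86 and 7.01 at 30 h and 8.18, 7.25 and 6.94 at 60 h. Its highest array was replicate A at each of propagation 0 h, fermentation 8 h and fermentation 60 h, the 3 arrays of low 5-prime signal. Against propagation 0 h MET32 was higher by 1.51 (SE 0.45, adjusted p = 0.00766) at 8 h and by 1.51 (SE 0.45, adjusted p = 0.00729) at 30 h. At fermentation 30 h against propagation 30 h both were lower, MET31 at -1.23 and MET32 at -1.51. Both calls were lost without propagation 30 h C or either array of fermentation 30 h, and that of MET31 also without propagation 30 h B.

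MET28 was not above the other-species percentile on propagation 0 h A and C and propagation 8 h C. It read 4.46, 5.09 and 4.34 at propagation 0 h, 6.46, 5.60 and 5.00 at 8 h and 7.06, 6.63 and 6.13 at 30 h. In fermentation MET28 read 5.37, 5.93 and 5.96 at 8 h, 6.19 and 5.93 at 30 h and 4.77, 6.16 and 6.69 at 60 h. It was higher at propagation 30 h than at 0 h by 1.97 (SE 0.44, adjusted p = 0.000732), and its groups overlapped at 8 h (1.06). The call at 8 h was lost with only the groups compared. It was lost also without propagation 0 h A, propagation 0 h C, propagation 8 h A, propagation 8 h B or propagation 30 h B. MET30 encodes the F-box subunit that restrains Met4. MET30 read 8.11, 8.61 and 8.93 at propagation 0 h, 8.07, 7.05 and 7.46 at 8 h and 7.71, 7.98 and 7.71 at 30 h. In fermentation the MET30 values were 9.15, 9.24 and 9.16 at 8 h, 10.10 and 9.69 at 30 h and 10.01, 10.46 and 10.41 at 60 h. The 6 arrays of propagation 8 h and 30 h were below the other 11. MET30 was lower than at propagation 0 h, at -1.03 (SE 0.27, adjusted p = 0.00303) for 8 h and -0.75 (SE 0.27, adjusted p = 0.0212) for 30 h, the second call being lost with recentred arrays, under quantile normalization, with only the groups compared and without propagation 0 h B, propagation 0 h C, propagation 30 h A or propagation 30 h C. It rose by 1.11 (SE 0.27, adjusted p = 0.0106) from fermentation 8 h to 60 h.

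**Figure D5:**
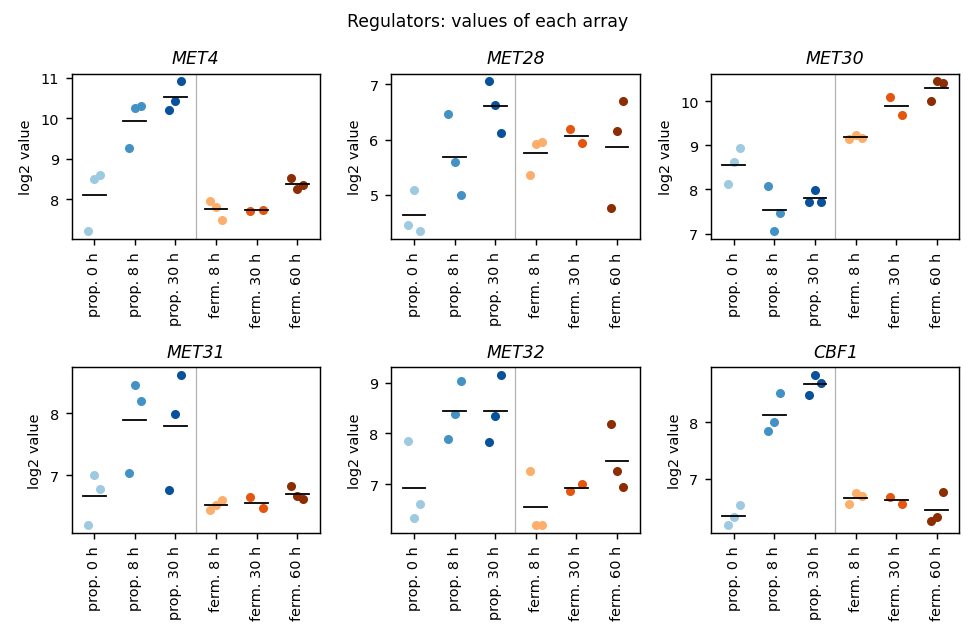
Log2 values of each array (points) and group means (bars) for the 6 regulators in the 6 groups of stage and time (x axis). MET4 and CBF1 lie higher on the 6 arrays of propagation 8 h and 30 h than on the other 11, and MET30 lies lower on them, with its highest mean at fermentation 60 h.

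Other genes that feed or use the pathway were counted in the same fit. Whether the calls on these further genes hold in the other settings was not examined. The 9 genes of the one-carbon and methyl cycle supply the methyl group of methionine and recycle what remains of S-adenosylmethionine. At fermentation 8 h against propagation 0 h, 2 of them were higher, ADE3 by 2.02 (SE 0.27, adjusted p = 4.27e-05) and SHM2 by 1.10 (SE 0.33, adjusted p = 0.0198), and MIS1 was lower (-1.41 (SE 0.49, adjusted p = 0.0404)). The shares of all genes in that comparison were 16.5% higher and 11.5% lower. Against propagation of the same age, 8 of the 9 were higher in fermentation at 8 h, where 44.7% of all genes were, and 7 of the 9 at 30 h, where 37.5% were. Of 9 genes of methionine salvage and polyamine synthesis, 2 were higher and 4 lower at fermentation 8 h than at propagation 0 h, against the same 16.5% and 11.5% of all genes, with SPE3, the spermidine synthase, at -1.64 (SE 0.30, adjusted p = 0.000641). None of the 5 genes of homoserine supply was called in that comparison, while all 5 were higher in fermentation than in propagation at 8 h (44.7% of all genes) and at 30 h (37.5% of all genes), HOM6 by 2.82 and 3.58. Both genes of glutathione synthesis were higher at fermentation 8 h than at propagation 0 h (16.5% of all genes), GSH1 at 1.32 (SE 0.47, adjusted p = 0.0432) and GSH2 at 1.02 (SE 0.37, adjusted p = 0.0474).

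Of 9 measured genes for the uptake and breakdown of other sulfur compounds, 3 were higher and 3 lower at propagation 8 h than at 0 h, where 24.3% and 43.1% of all genes were. JLP1, which releases sulfite from sulfonates, was higher by 3.82 (SE 0.28, adjusted p = 9.31e-09), and IRC7, a cysteine desulfhydrase known for releasing thiol aromas, by 3.08 (SE 0.41, adjusted p = 5.33e-06). The lowest difference among the 9 genes was -3.17, larger in size than that of IRC7. At fermentation 8 h against propagation 0 h, 2 were higher, where 16.5% of all genes were, DUG1, a peptidase of glutathione breakdown, by 1.82 (SE 0.19, adjusted p = 3.92e-06) and OPT1, a glutathione transporter, by 1.24 (SE 0.40, adjusted p = 0.0305). Of the 5 partners of Met30 and Met4, none was called at fermentation 8 h against propagation 0 h, and HRT1, the RING subunit of the same ligase, rose from fermentation 8 h to 60 h by 1.28 (SE 0.30, adjusted p = 0.00723), as 9.21% of all genes did. SKP1, the adaptor that carries F-box proteins such as Met30, was lower at propagation 8 h and 30 h than at 0 h, at -3.01 and -3.08, as were 43.1% and 38.7% of all genes.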

How the data were processed

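RNA of 17 yeast samples was hybridized to arrays with 10928 probe sets. The deposited values are log2 expression summaries made by the authors with RMA, per the submitters' processing notes. The set of arrays normalized together is not given in the sources used here. The values were used as deposited, from 2.17 to 14.07. Arrays have no read depth, so their number limits the precision.

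A gene with several probe sets (47 of the 5449 genes) was read by the one of highest mean. All 17 arrays entered a linear model of group means in limma 3.58.1 (lmFit, eBayes; R 4.3.3), with Benjamini-Hochberg adjustment over 5449 genes. In all, 9 comparisons and 1 interaction were tested. Figures were drawn with matplotlib 3.10.9.

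The genes and lists were chosen with earlier results of these data known. By the rule for named genes, values of each array are given for the regulators and the genes called in the most comparisons, and other genes by range, with at most 3 called genes per further list. The array values of SSU1, MET6, SAM1 and SAM2 were added after their values were seen. SOA1 was not matched.

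Alternatives left out the dimmest 25% of genes, recentred the arrays, quantile normalized the genes, averaged probe sets, fitted only the groups compared, weighted the arrays, added the replicate letter as a block and left out each array in turn. Leaving out the 3 arrays of low 5-prime signal and averaging fermentation 8 h B and C came from an earlier account of these data. A fit without the 6 arrays of propagation 8 h and 30 h was chosen after seeing the data. Of 40 same-letter pairs of arrays from different groups, 14 had residuals correlated above 0.1 (range -0.152 to 0.777). Pairs of different letters were not examined, so this count cannot say whether the letters pair the arrays. The reported fit did not pair them.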

Additional observations from a re-analysis of the deposited data

How the results depend on the processing

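Of the alternatives, array weights gave the most calls among the 32 genes within fermentation and at fermentation 8 h against propagation 0 h. These weights were 11.2 and 8.40 for the near-identical fermentation 8 h B and C and 0.063 for propagation 0 h A. From fermentation 8 h to 30 h, 0 genes were called and 7 with array weights. From 8 h to 60 h, 10 were called, 23 with array weights, 5 with fermentation 8 h B and C averaged, and 3 to 13 without single arrays. From 30 h to 60 h, 2 were called, 8 with only the groups compared and 19 with array weights. Leaving out the 3 arrays of low 5-prime signal gave 4. Leaving out single arrays gave 0 (without fermentation 30 h C) to 9 (without propagation 0 h A). Without dim genes, a setting that kept 25 of the 32 genes, 1 was called, and MET3 was not tested. For fermentation 8 h against propagation 0 h, 10 were called, 21 with array weights and 8 to 12 without single arrays. From propagation 8 h to 30 h, 4 were called, and 2 with recentred arrays or with fermentation 8 h B and C averaged. Leaving out single arrays gave 1 (without propagation 30 h C) to 6. Without dim genes MET10 and STR3 kept their calls, and SUL1 and STR2 were not tested. The interaction called 0, 2 with array weights, 1 without the 3 arrays, and 0 to 2 (without propagation 0 h A) without single arrays. Without single arrays, propagation 8 h against 0 h had 19 to 24 calls, propagation 30 h against 0 h 20 to 23, and fermentation against propagation 21 to 23 at 8 h and 19 to 25 at 30 h. One value reversed: MET17, at fermentation 8 h against propagation 8 h, was 0.04 and became -0.68 (adjusted p = 0.0197) under quantile normalization. The cause was not tested. Whether the replicate letters pair the arrays is not known. With the letter as a block, 23 and 24 genes were called at propagation 8 h and 30 h against 0 h. The counts with this block were 11 from fermentation 8 h to 60 h and 10 at fermentation 8 h against propagation 0 h. SAM4 at propagation 30 h against 0 h then passed (-1.53, adjusted p = 0.0183), while MET1 at propagation 8 h against 0 h did not (0.0550). Without the 6 arrays that stand apart, 0, 8, 2 and 10 genes were called from fermentation 8 h to 30 h, 8 h to 60 h, 30 h to 60 h, and at fermentation 8 h against propagation 0 h. Of all genes called, the share that was higher moved with recentring from 36.1% to 47.0% for propagation 8 h against 0 h, from 61.5% to 31.9% for propagation 30 h against 8 h, from 58.1% to 45.1% and from 66.0% to 35.6% for fermentation 60 h against 8 h and 30 h, from 64.7% to 52.8% between the stages at 8 h and from 46.7% to 76.9% for the interaction. The number of all genes called ran over the alternatives from 833 to 3184 (1529 in the reported fit) for fermentation 8 h against propagation 0 h, 431 to 3606 (864) for fermentation 60 h against 8 h, 2 to 2025 (235) against 30 h, 0 to 313 (0) for fermentation 30 h against 8 h, 149 to 914 (273) for propagation 30 h against 8 h and 6 to 349 (15) for the interaction. The lowest of 2 was without fermentation 30 h C.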
